A study of Mus musculus with 8 samples.

Results

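The expression of 9 genes of 2 innate recognition systems was followed through LPS stimulation of mouse macrophages: the complement genes C1qa, C1qb, C1qc, C3 and Cfb, the receptors of complement fragments C3ar1 and C5ar1, and the formyl peptide receptors Fpr1 and Fpr2. The members were all probe sets that the platform annotation assigns to these genes alone. That gave 10 probe sets for 7 of the 9 genes, out of 22690 probe sets for 12394 genes. C3 and Fpr1 are not analysed here. The members and the gene lists set beside them were chosen for their function, with earlier results of these data known.

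Complement is a cascade of serum proteins. C1q, built of A, B and C chains encoded by C1qa, C1qb and C1qc, binds antibody or surface patterns and starts the classical pathway, and macrophages are a main source of it. Factor B, encoded by Cfb, is the protease precursor of the alternative pathway convertase, which amplifies cleavage of the central component C3. The released fragments C3a and C5a act on leukocytes through G protein-coupled receptors, C3ar1 and C5ar1, while Fpr2 is a related receptor for formylated bacterial peptides and for endogenous ligands such as serum amyloid A. CD14 is the co-receptor that hands LPS to the TLR4 complex, and EGTA is a chelator of calcium.

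The study profiled macrophages grown for 7 days from bone marrow of C57BL/6 mice, aged 6 to 8 weeks, with M-CSF and 10% serum, on 8 Affymetrix arrays. There were 3 arrays of CD14-deficient macrophages (Cd14-/- on C57BL/6), 1 unstimulated and 1 each after 6 and 24 h of LPS. Another 2 were of wild-type macrophages given LPS with EGTA for 6 and 24 h, and 3 were of wild-type macrophages without EGTA, unstimulated or after 6 and 24 h of LPS. LPS was used at 1 µg/ml. The labels call it smooth for the wild-type cells only. They give 2 mM EGTA for the 24 h culture and no concentration for the 6 h culture, and they do not say how many mice a culture came from. Unstimulated cells were harvested 24 h after plating. No array of EGTA without LPS was analysed here. Each group had 1 array, so no difference between 2 arrays has a replicate check, and the number of arrays limits the precision of every value.

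The deposited values were linear MAS5 intensities whose 2% trimmed means ranged over arrays from 314 to 527, a ratio of 1.68. They were quantile normalised here, raised to a floor of 38.4 at the 40th percentile, and put on the log2 scale. Unless called summed, the levels below are these normalised intensities of 1 probe set, which cannot be set against another probe set's. Summed intensities add probe sets of unlike scale, so the brightest genes weigh most in them. A gene was compared between 2 arrays if the brighter one exceeded 88.2, the median of all values, and it was counted as higher or lower at a difference of at least 2-fold. The labels were checked with Cd14, which lay at the floor on all 3 CD14-deficient arrays and between 3849 and 12515 on the 5 wild-type arrays. Of 8 macrophage markers 7 were measured, and all 7 exceeded the median on at least 1 array. Of 10 neutrophil markers, a cell type known for Fpr2 and C5ar1, 8 were measured. Ltf, Ngp, Cxcr2 and Prtn3 were at the floor on all 8 arrays, and Elane and Mpo reached no more than 43.0. The other 2 exceeded the median, Camp with 107 in CD14-deficient cells at 24 h, and Mmp8 with 366 on the unstimulated CD14-deficient array, 158 with EGTA at 24 h, and 514 unstimulated and 98.8 at 24 h in wild-type cells. Every measured marker of dendritic cells (5), T and NK cells (5), B cells (4) and mast cells (5) was at the floor on all arrays. The megakaryocyte marker Pf4, which macrophages can also express, lay between 4011 and 8297, and the other 3 measured markers of that list stayed under the median. Of 5 stromal markers Dcn exceeded the median, with 192 on the wild-type array at 24 h of LPS. The arrays are of bulk cultures, in which fewer cells of a type and less RNA per cell cannot be told apart.

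Cfb and Fpr2 were the 2 inducible members. Both were at the floor on the CD14-deficient array before LPS and low on the wild-type one, and both were higher at 6 h and higher again at 24 h. Factor B mRNA (probe set 1417314_at) in CD14-deficient cells was at the floor of 38.4 before LPS, 1119 at 6 h and 4707 at 24 h. With EGTA it was 813 at 6 h and 4019 at 24 h of LPS, and in wild-type cells without EGTA it was 79.7, 748 and 3575 at 0, 6 and 24 h. Each LPS array was above both unstimulated arrays, and each 24 h array was above each 6 h array. Against the unstimulated array of the same genotype, Cfb was at least 29.2-fold higher at 6 h and at least 123-fold higher at 24 h in CD14-deficient cells, where the baseline is only a bound. The folds in wild-type cells were 9.38 at 6 h and 44.8 at 24 h.

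Fpr2 (1422953_at) in CD14-deficient cells was at the floor before LPS, 1551 at 6 h and 5689 at 24 h. It was 466 and 3266 at 6 and 24 h of LPS with EGTA, and 42.4, 339.9 and 2136 at 0, 6 and 24 h in wild-type cells without EGTA. At both LPS times the CD14-deficient array was the highest, the EGTA array came next and the wild-type array without EGTA was the lowest. Against 0 h, Fpr2 was at least 40.4-fold higher at 6 h and at least 148-fold higher at 24 h in CD14-deficient cells. In wild-type cells it was 8.02-fold and 50.4-fold higher. The wild-type baseline of 42.4 lies close to the floor, so signal over background limits these folds. With the floor at the 20th percentile instead, the wild-type folds stayed the same. In CD14-deficient cells the log2 difference then went from 5.34 to 7.08 at 6 h and from 7.21 to 8.95 at 24 h.

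**Figure D1:**
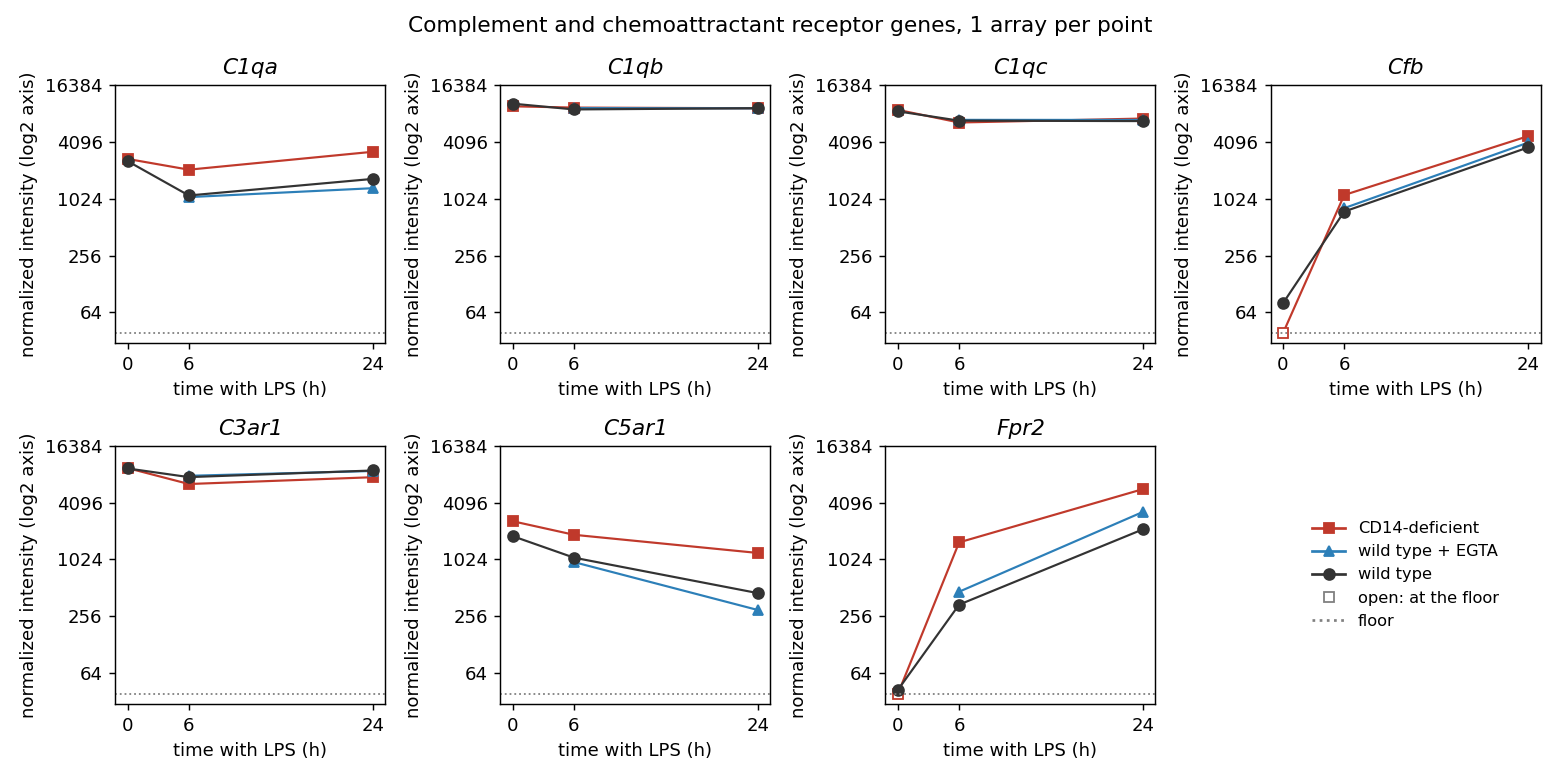
Normalised intensity (log scale) of each measured member on each of the 8 arrays, 1 point per array with no error since each group had 1 array, against hours of LPS for CD14-deficient cells, wild-type cells with EGTA and wild-type cells. The dotted line is the floor of 38.4. Cfb and Fpr2 are highest at 24 h, between 2136 and 5689, C5ar1 is lowest at 24 h in each series, and C1qb, C1qc and C3ar1 stay within 1.48-fold of themselves.

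C5ar1, the receptor through which C5a attracts and activates myeloid cells, went the other way. Its probe set, 1422190_at, was at 2599, 1866 and 1198 at 0, 6 and 24 h in CD14-deficient cells. With EGTA it was 959 at 6 h and 298 at 24 h, and in wild-type cells without EGTA it was 1807, 1069 and 450.1 at 0, 6 and 24 h. The level was lower at each later time in all 3 series, and the 24 h CD14-deficient array still exceeded the 6 h wild-type array. Against 0 h, C5ar1 was 2.17-fold lower at 24 h in CD14-deficient cells and 4.01-fold lower in wild-type cells. At 6 h the differences were 1.39-fold in CD14-deficient cells and 1.69-fold in wild-type cells, both under 2-fold. Its levels spanned 8.72-fold over the 8 arrays.

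The promoters of Fpr2 and C5ar1 are shown because these 2 chemoattractant receptors had opposite courses under LPS. Each stretch runs from 250 bases before to 50 bases after the gene's start in RefSeq's annotation of GRCm38.p6, 5′ to 3′ on the gene's strand. The first is chr17:17887574-17887873 on the plus strand, and the second is chr7:16259289-16259588 on the minus strand. Capitals mark matches, on either strand, to 5 motifs searched: GGG, any 5 bases and CC for NF-kB, GAAA, any 2 bases and GAAA for the interferon-stimulated response element, TTCNNNGAA for the STAT site GAS, TTGCNNAA for C/EBP and GAGGAA for PU.1.
Fpr2: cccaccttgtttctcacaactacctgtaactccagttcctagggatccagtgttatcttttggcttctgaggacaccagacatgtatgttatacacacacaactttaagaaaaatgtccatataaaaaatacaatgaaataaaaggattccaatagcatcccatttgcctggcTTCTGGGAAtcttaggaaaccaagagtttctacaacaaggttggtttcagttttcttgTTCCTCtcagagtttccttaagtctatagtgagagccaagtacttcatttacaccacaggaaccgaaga
C5ar1: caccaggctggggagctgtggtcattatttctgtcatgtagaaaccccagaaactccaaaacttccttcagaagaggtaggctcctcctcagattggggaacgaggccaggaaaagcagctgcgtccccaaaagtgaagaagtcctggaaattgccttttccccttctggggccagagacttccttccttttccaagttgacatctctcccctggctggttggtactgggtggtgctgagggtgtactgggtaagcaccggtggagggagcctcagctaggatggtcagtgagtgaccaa
The Fpr2 stretch held a GAS match at bases -77 to -69 from the start, counted with the start as +1, and a PU.1 match on the opposite strand at -19 to -14. These 2 motifs occur in 8.30% and 28.3% of the 32851 promoters in the table. The C5ar1 stretch held none of the 5, which says only that these letters are not in this window. Other measured members found in the table had matches too. NF-kB, present in 50.8% of all promoters, matched in C1qb, C1qc and C3ar1, and PU.1 in C1qb and C1qc. The interferon element, in 3.44% of promoters, and the C/EBP motif, in 10.8%, matched in none of these 5. A match describes the letters and not a bound site. Cfb and C1qa were not among the promoters used.

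The 3 C1q genes lie next to one another, C1qb, C1qc and C1qa in that order among protein-coding genes, but their transcripts did not behave alike. C1qa (1417381_at) was 2698, 2076 and 3212 at 0, 6 and 24 h in CD14-deficient cells. With EGTA it was 1064 at 6 h and 1322 at 24 h, and in wild-type cells without EGTA it was 2559, 1107 and 1658 at 0, 6 and 24 h. All 4 wild-type LPS arrays lay below every CD14-deficient array and below the unstimulated wild-type array. Against 0 h, wild-type C1qa was 2.31-fold lower at 6 h and 1.54-fold lower at 24 h. In CD14-deficient cells the log2 difference from 0 h was -0.38 at 6 h and 0.25 at 24 h.

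C1qb and C1qc stayed close to their starting levels. The C1qb probe set with the highest mean, 1417063_at, read 9728, 9434 and 9280 in CD14-deficient cells at 0, 6 and 24 h, 9311 and 9267 with EGTA at 6 and 24 h, and 10381, 9015 and 9296 in wild-type cells at 0, 6 and 24 h. That is a range of 1.15-fold over 8 arrays. C1qc (1449401_at) read 8924, 6555 and 7222 in CD14-deficient cells at 0, 6 and 24 h. It read 6992 and 6978 with EGTA at 6 and 24 h, and 8611, 6858 and 6786 in wild-type cells at 0, 6 and 24 h, a range of 1.36-fold. Both unstimulated arrays were above all 6 LPS arrays for C1qc. This C1qb probe set lay between the 98.99 and 99.3 percentile of its arrays, and C1qa between 86.6 and 95.2. Whether brightness near the top of the scale flattens the C1qb and C1qc differences was not tested.

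The other C1qb probe sets moved somewhat more. Probe set 1434366_x_at spanned 1.56-fold and 1437726_x_at 1.33-fold, and on both of them each unstimulated array was above every LPS array. At 6 h the CD14-deficient array was lower than wild type on 1434366_x_at (6040 against 7495) and higher on the brightest C1qb probe set (9434 against 9015). None of the 3 reached 2-fold in any comparison.

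**Figure D2:**
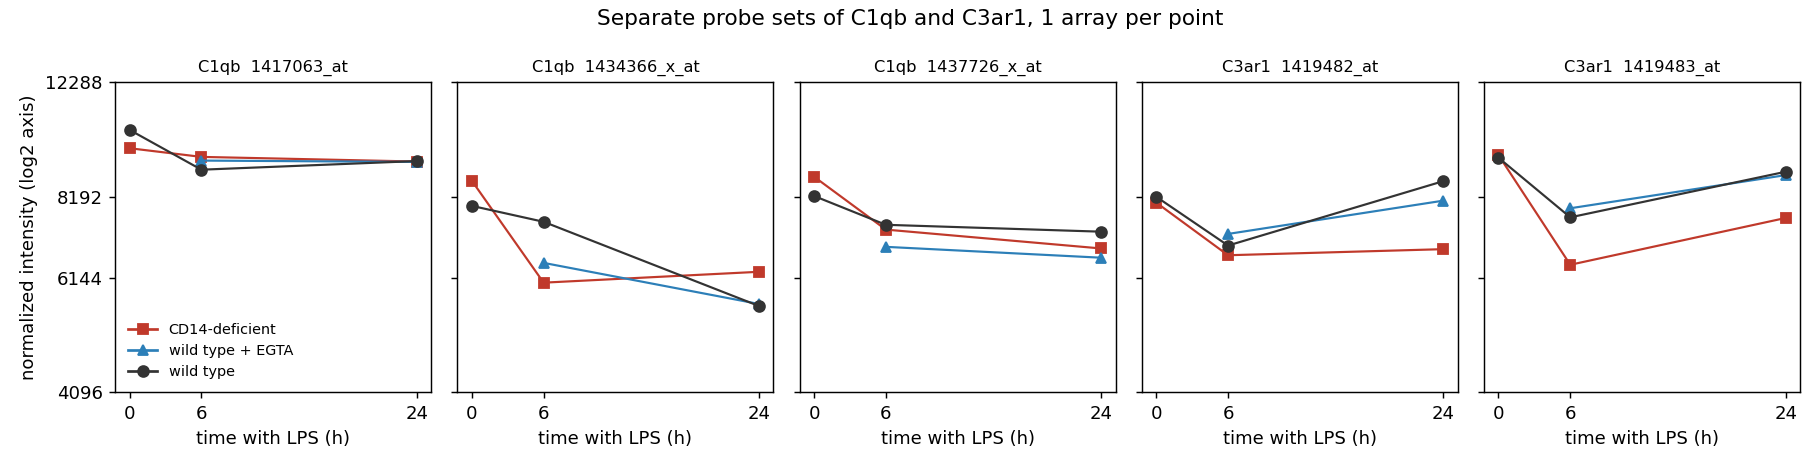
Normalised intensity of every probe set of C1qb and of C3ar1 on the 8 arrays (log scale), 1 point per array with no error since each group had 1 array. The probe sets of a gene differ in level but all C1qb ones stay within 1.56-fold and both C3ar1 ones within 1.48-fold over the arrays.

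C3ar1, the receptor of C3a, was also steady. Its brighter probe set, 1419483_at, read 9495, 6436 and 7598 at 0, 6 and 24 h in CD14-deficient cells, 7863 and 8844 with EGTA at 6 and 24 h, and 9406, 7614 and 8950 in wild-type cells at 0, 6 and 24 h. Within each genotype the 6 h array was the lowest and the 0 h array the highest. The second probe set, 1419482_at, spanned 1.30-fold, and its highest array was wild type at 24 h of LPS (8658) rather than an unstimulated one. The median gene spanned 1.05 log2 units over the 8 arrays, among 7292 genes above the median intensity on at least 1 array.

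The counts of members at 2-fold follow from these levels. After 6 h of LPS in CD14-deficient cells, 2 of 7 members were higher and none lower, where 10.3% of all compared genes were higher and 8.99% lower. After 24 h, 2 were higher (8.29% of all genes) and 1 lower (8.77%). Between 24 and 6 h, 2 were higher (4.32%) and none lower (6.16%). In wild-type cells 2 members were higher and 1 lower at 6 h (10.5% and 9.5% of all genes), again at 24 h (10.6% and 10.7%), and again for 24 h against 6 h (5.5% and 5.56%). The same was found with EGTA for 24 h against 6 h, where 5.6% of all genes were higher and 6.14% lower. The higher members were Cfb and Fpr2 each time. The lower one was C1qa at 6 h in wild-type cells and C5ar1 in the other comparisons. With arrays scaled to equal medians, C1qa at 6 h in wild-type cells (-0.89) and C5ar1 at 24 h in CD14-deficient cells (-0.81) were no longer past 2-fold. C3ar1, C1qb and C1qc were in no count. The median log2 difference at 24 h of LPS in wild-type cells was -0.16 over the members and -0.07 over all compared genes. With arrays scaled to equal medians it was 0.48 over the members and 0.12 over all genes, so the sign of both rests on the scaling.

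From 6 to 24 h the gain of Fpr2 ranged more widely over the series than that of Cfb. Fpr2 was 3.67-fold higher at 24 h than at 6 h in CD14-deficient cells, 7.01-fold with EGTA and 6.28-fold in wild-type cells. Cfb was 4.21-fold higher in CD14-deficient cells, 4.94-fold with EGTA and 4.78-fold in wild-type cells. C5ar1 was 1.56-fold lower over this interval in CD14-deficient cells, 3.22-fold lower with EGTA and 2.37-fold lower in wild-type cells. These comparisons have no replicate, and the differences between the series were not tested.

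The genotype comparison asks how the members differ where CD14 is missing. Before LPS, none of the 5 compared members reached 2-fold in CD14-deficient against wild-type cells, where 1.4% of all genes were higher and 3.2% lower. C5ar1 was 1.44-fold higher, and C1qa, C1qb, C1qc and C3ar1 differed by between -0.09 and 0.08 log2 units. Cfb and Fpr2 were too dim to be compared, with Cfb at the floor in CD14-deficient cells and at 79.7 in wild-type cells. The interferon response genes did differ at 0 h. CD14-deficient cells had lower levels of all 8 measured of 10 listed, each by 2-fold or more, with a median log2 difference of -4.91 and a summed intensity of 1924 against 41884 in wild-type cells. Their part in the Cfb baseline was not tested.

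At 6 h of LPS Fpr2 was 4.56-fold higher in CD14-deficient than in wild-type cells, the 1 of 7 members past 2-fold. Of all compared genes, 2.53% were higher, 3.08% lower, and 0.621% differed by more than Fpr2 in either direction. C1qa was 1.88-fold, C5ar1 1.75-fold and Cfb 1.5-fold higher, all under 2-fold. At 24 h, 2 members passed 2-fold and none was lower by that much, where 5.21% of all genes were higher and 6.21% lower. C5ar1 was at 1198 in CD14-deficient and 450.1 in wild-type cells, and Fpr2 at 5689 in CD14-deficient and 2136 in wild-type cells, each a 2.66-fold difference. C1qa was 1.94-fold higher and Cfb 1.32-fold higher. On the intensities as deposited, where the median of all genes was itself at 0.43, C1qa was at 1.21 and past 2-fold. C1qb, C1qc and C3ar1, by the probe set with the highest mean, were within 0.24 log2 units of wild type at both LPS times. The widest differences among the other probe sets of C1qb and C3ar1 were -0.31 for C1qb 1434366_x_at at 6 h and -0.35 for C3ar1 1419482_at at 24 h.

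The higher Fpr2 and C5ar1 signals were set against neutrophil markers, since neutrophils carry both receptors. Mmp8 was at 366, the floor and 66.5 in CD14-deficient cells at 0, 6 and 24 h. It was at 86.9 and 158 with EGTA at 6 and 24 h, and at 514, 69.9 and 98.8 in wild-type cells at 0, 6 and 24 h. Like C5ar1 it was highest before LPS in both genotypes, but unlike C5ar1 it was lower in CD14-deficient than in wild-type cells at each time. Camp was at 107 in CD14-deficient cells at 24 h, against 38.6 in wild-type cells without EGTA. The other 6 markers were at the floor on every array without EGTA. With EGTA at 24 h, Elane was at 42.4 and Mpo at 43.0. Summed over the 8 genes, each at the floor or above, the intensity was 635 in CD14-deficient against 782 in wild-type cells at 0 h, 307 against 338 at 6 h and 404 against 368 at 24 h, and with EGTA it was 356 at 6 h and 435 at 24 h. The 307 is the sum of 8 values at the floor, and the excess at 0 h is all Mmp8. The part of such cells in the receptor signals was not tested.

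**Figure D3:**
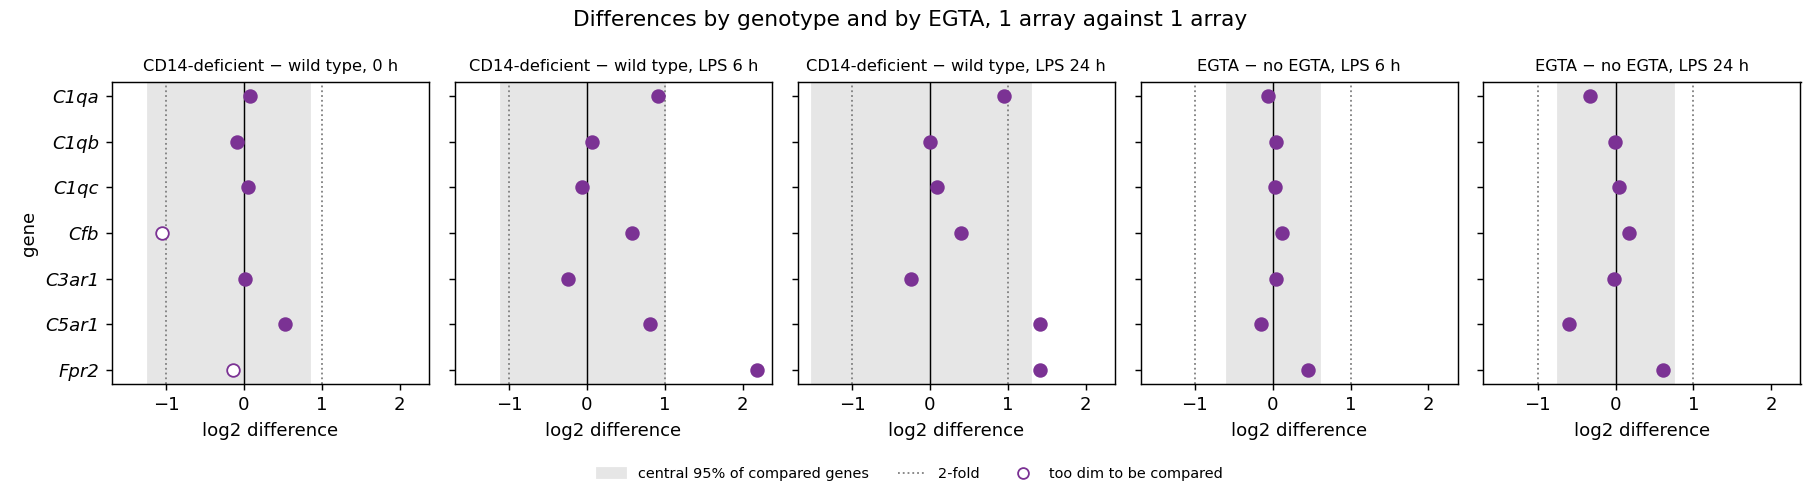
Log2 difference of each measured member for CD14-deficient against wild-type cells at 0, 6 and 24 h and for EGTA against no EGTA at 6 and 24 h of LPS, 1 array against 1 array with no error bar, with the range that holds the central 95% of all compared genes. Fpr2 at 6 h (2.19) lies above that range, and C5ar1 and Fpr2 at 24 h (1.41 each) lie above its upper end of 1.30.

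The change with LPS can also be set side by side for the 2 genotypes. The log2 response of C5ar1 at 24 h was -1.12 in CD14-deficient and -2.00 in wild-type cells, and that of C1qa at 6 h was -0.38 in CD14-deficient and -1.21 in wild-type cells. These responses contain the unstimulated array of each genotype, and the difference between them was not tested.

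The EGTA comparison asks how the members differ when LPS is given with the chelator. No member reached 2-fold at 6 h, where 0.549% of all genes were higher and 0.267% lower, or at 24 h, where 1.02% were higher and 1.11% lower. Fpr2 was nearest on the higher side, at 466 with EGTA and 339.9 without it at 6 h (1.37-fold), and at 3266 with EGTA and 2136 without it at 24 h (1.53-fold). Of all compared genes, 9.64% at 6 h and 8.17% at 24 h differed by more. C5ar1 was nearest on the lower side, with 298 with EGTA and 450.1 without it at 24 h (1.51-fold). C1qa was 1.25-fold lower at 24 h. Cfb was 1.09-fold and 1.12-fold higher at 6 and 24 h, and C1qb, C1qc and C3ar1, by the probe set with the highest mean, were within 0.05 log2 units at both times. Among the other probe sets of C1qb and C3ar1 the widest difference was -0.21, for C1qb 1434366_x_at at 6 h. The deposited intensities of the 6 h EGTA array were lower for most genes, with a median log2 difference of -0.78 over all compared genes. On that scale Fpr2 was at -0.33 and Cfb at -0.67, so both changed sign, while both still lay above the median gene. The comparisons of EGTA and of CD14 deficiency share the same wild-type LPS arrays.

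An additive limma model of time, CD14 deficiency and EGTA was fitted over all 8 arrays and 7292 genes. With 3 degrees of freedom left, its errors reflect how far effects fail to add up across arrays and not the spread between cultures. The p-values were adjusted by Benjamini-Hochberg over all genes. For CD14 deficiency none of the 7 members passed an adjusted p of 0.05, where 0.0686% of all genes were higher and 0.384% lower. At an unadjusted p under 0.05 the counts over all genes were 620 higher and 751 lower. Fpr2 had a log2 effect of 1.15 ± 0.43 (SE, limma adjusted p = 0.24). C5ar1 had 0.91 ± 0.24 (SE, limma adjusted p = 0.17), higher at 3 of 3 times, and C1qa had 0.65 ± 0.21 (SE, limma adjusted p = 0.21), also higher at 3 of 3 times. Cfb had -0.03 ± 0.32 (SE, limma adjusted p = 0.97), with its lower baseline against its higher LPS levels. Over the alternatives the Fpr2 effect ran from 0.57 with the floor at the 20th percentile (limma adjusted p = 0.71) to 1.80 without the 2 unstimulated arrays (limma adjusted p = 0.071). On the intensities as deposited it was 1.06 with a limma adjusted p of 0.045, and over all alternatives that p lay between 0.045 and 0.71. The Cfb effect ran from -0.64 with the lower floor to 0.49 without the unstimulated arrays, passing in neither. For EGTA no gene passed in limma (0% higher and 0% lower), with 213 higher and 202 lower at an unadjusted p under 0.05, and C5ar1 had -0.47 ± 0.28 (SE, limma adjusted p = 0.97). The EGTA effect in the fit was 0.21 for Fpr2 and -0.11 for Cfb. For Cfb that sign is opposite to its direct EGTA differences of 0.12 at 6 h and 0.17 at 24 h. Without the 2 unstimulated arrays the Cfb effect was 0.14. The EGTA effect in the fit also draws on the unstimulated and CD14-deficient arrays.

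The 2 inducible members followed the same order over the arrays. From low to high, both ran CD14-deficient 0 h, wild type 0 h, wild type 6 h, EGTA 6 h, CD14-deficient 6 h, wild type 24 h, EGTA 24 h and CD14-deficient 24 h. Pearson's r of their log2 levels was 0.977 over the 8 arrays. That figure is a description, since the arrays share baselines and times. All other members had negative r to both. C5ar1 had r of -0.744 to Cfb and -0.641 to Fpr2. The corresponding values were -0.847 and -0.809 for C1qc, -0.718 and -0.684 for C1qb, and -0.428 and -0.491 for C3ar1. For C1qa they were -0.293 and -0.146. C1qb and C1qc had r of 0.787, and C1qa had 0.561 to C1qb and 0.559 to C1qc.

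Each member was also compared with the genes that vary at least 2-fold over the arrays, and the 3 nearest by r were taken. The nearest to Fpr2 among 3885 genes were Cp (r = 0.988), which encodes the copper-carrying ferroxidase ceruloplasmin, Rhog (0.981) and Lrp10 (0.981). Cfb was nearest to Psmd10 (0.996), Sema4a (0.985) and the membrane metalloprotease gene Mmp14 (0.982). C5ar1 was nearest to Banf1 (0.995), Eif3l (0.991) and Dph6 (0.988). C1qa was nearest to the splicing factor gene Srsf9 (0.979), Fam174a (0.975) and the actin regulator gene Coro1a (0.974). For the flat members C1qc, C1qb and C3ar1 the nearest genes follow small differences. C1qc was nearest to Dusp7 (0.987), Cdca7l (0.985) and Tnfrsf21 (0.984). C1qb was nearest to Vash2 (0.938), Top1 (0.915) and Kifc3 (0.915), and C3ar1 to Arhgap12 (0.970), Oxr1 (0.970) and Csgalnact2 (0.949).

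Most of the remaining complement and chemoattractant receptor genes were dim in these macrophages. Of 54 listed genes 42 were measured, 20 of those were at the floor on all 8 arrays, and 14 exceeded the median intensity on at least 1. The terminal pathway, which builds the membrane attack complex, had 6 of 7 genes measured and none above the median, with 5 at the floor throughout. The receptor genes Fpr-rs3, Fpr-rs4, Cxcr2, Ltb4r1 and Cmklr1 were at the floor on every array. Properdin, encoded by Cfp, which stabilises the alternative pathway convertase in which factor B acts, lay between 3860 and 6108 and was under 2-fold in every comparison.

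C1ra, which encodes a protease of the C1 complex that C1q activates, was the pathway gene higher after LPS. It was 43.6, 149 and 270 at 0, 6 and 24 h in CD14-deficient cells. With EGTA it was 344 at 6 h and 444 at 24 h, and it was 79.9, 261 and 429 in wild-type cells at 0, 6 and 24 h. At 24 h it was 6.18-fold above 0 h in CD14-deficient cells and 5.37-fold in wild-type cells. None of C1qa, C1qb and C1qc was higher by 2-fold against 0 h.

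Several receptors and C1q-binding proteins had lower signals with LPS. Cd93, once described as a C1q receptor, was 4.19-fold lower at 24 h in CD14-deficient cells and 4.83-fold lower in wild-type cells, and at 24 h it was 2.06-fold higher with EGTA (1644) than without it (799.7). C1qbp, a mitochondrial protein that binds C1q, was 4.43-fold lower at 24 h in wild-type cells, and at 24 h it was at 2654 in CD14-deficient and 860 in wild-type cells, 3.09-fold higher. Ccr1, a chemokine receptor of macrophages, was 3.09-fold lower at 24 h in CD14-deficient cells. At that time it stood at 1075 in CD14-deficient and 2583 in wild-type cells, 2.40-fold lower, so that it differed between genotypes in the direction opposite to C5ar1 and Fpr2. Cd55, a regulator that speeds the decay of convertases, was at the floor in unstimulated CD14-deficient cells and at 93.4 in wild-type cells, at least 2.43-fold lower.

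Over the listed pathway genes the counts at 2-fold can be read beside the shares of all compared genes. After 6 h of LPS in CD14-deficient cells, 1 of 12 compared genes was higher and 1 lower (10.3% and 8.99% of all genes). In wild-type cells at 6 h, 1 of 13 was higher and 4 were lower (10.5% and 9.5%). The 4 were Cd93, Ccr1, Cd55 and the integrin gene Itgax, of which Cd55 was at the floor at 6 h. After 24 h, 1 of 12 was higher and 2 lower in CD14-deficient cells (8.29% and 8.77%), and 1 of 14 was higher and 3 lower in wild-type cells (10.6% and 10.7%). For 24 h against 6 h, none of 12 passed in CD14-deficient cells (4.32% and 6.16%). With EGTA 1 of 12 was higher and 1 lower (5.6% and 6.14%), and in wild-type cells 1 of 13 was higher and 2 lower (5.5% and 5.56%). With this few compared genes, 1 gene more or fewer moves each share widely.

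In CD14-deficient against wild-type cells, none of 12 was higher and 1 lower at 0 h (1.4% and 3.2% of all genes), and none of 12 passed at 6 h (2.53% and 3.08%). At 24 h, 1 of 13 was higher and 2 lower (5.21% and 6.21%). With EGTA against no EGTA, none of 12 passed at 6 h (0.549% and 0.267%), and 1 of 13 was higher and none lower at 24 h (1.02% and 1.11%).

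**Figure D4:**
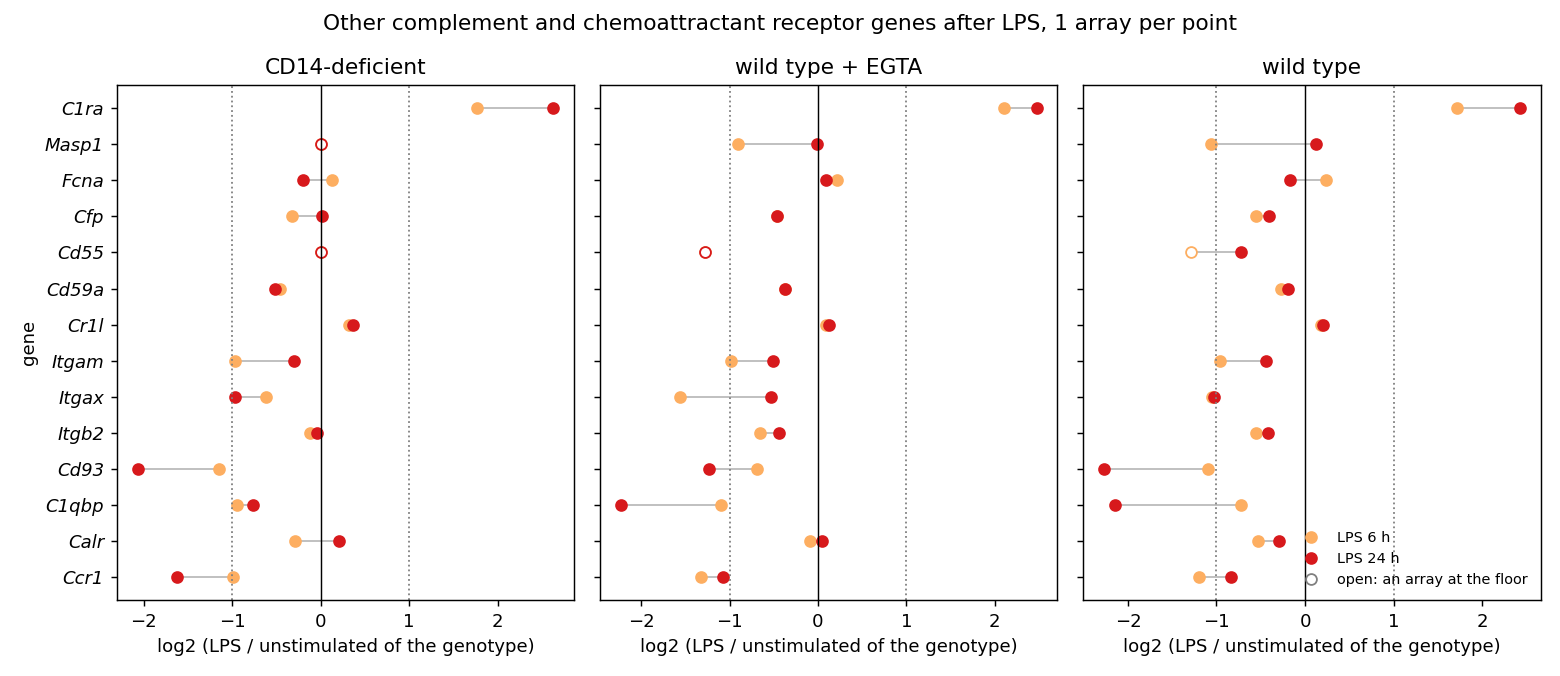
Log2 difference at 6 h and 24 h of LPS against the unstimulated array of the genotype (for EGTA, wild type without EGTA), for the 14 listed pathway genes above the median intensity on at least 1 array, 1 array against 1 array with no error bar. Dotted lines mark 2-fold. Open markers are differences in which at least 1 array lay at the floor. For Masp1 and Cd55 in CD14-deficient cells both arrays did, so their markers show no measured difference or lack of one. C1ra stands highest after LPS, and Cd93, C1qbp and Ccr1 are among the lowest.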

How the data were processed

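Gene expression was measured on 8 arrays, 1 per group, so sequencing depth does not apply and the number of arrays limits the precision. The deposited intensity values were made by the authors with MAS5, per the submitters' processing notes. Their version, scaling target and detection calls are not given in the sources used here. The platform annotation gave 20393 probe sets 1 gene, gave 691 several and left 1606 unnamed here, with 20364 matched to current symbols by gene ID. From these values, quantile normalisation over 8 arrays, a floor at the 40th percentile, log2 values and the probe set with the highest mean per gene were computed here (Python 3.11.15, pandas 2.3.3, numpy 2.4.6). Genes under 88.2 on both arrays were not compared. The additive model was fitted with limma 3.58.1 (lmFit and eBayes) in R 4.3.3. The steps were tested on simulated data. Alternatives were the deposited scale, equal medians, a floor at the 20th percentile, no filter, the mean over probe sets and leaving out the unstimulated arrays.

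Members, gene lists, motifs and tests were chosen with earlier results of these data known. The genes named were all members, the 3 pathway genes with the greatest difference per comparison, from which the text gives a selection, the 3 genes nearest to each member by r, Cd14, and single marker genes.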

Additional observations from a re-analysis of the deposited data

Results flagged for a closer look

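C1qa and C5ar1 stood on opposite sides of the wild-type LPS arrays in the other 2 conditions. C1qa was higher in CD14-deficient than in wild-type cells, by 0.91 log2 units at 6 h and 0.95 at 24 h, and lower with EGTA than without it, at -0.057 and -0.33. C5ar1 was higher in CD14-deficient than in wild-type cells, by 0.80 at 6 h and 1.41 at 24 h, and lower with EGTA than without it, at -0.16 and -0.59. The EGTA value of C1qa at 6 h is close to 0. Each value is 1 array against 1 array, both comparisons use the same wild-type LPS array at each time, and the difference between them was not tested.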

How the results depend on the processing

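Most counts kept within 1.5 times of their value, over members and over genes passing the additive fit. Of the alternative counts 122 did and 8 did not. The lower floor, the mean over probe sets and the lack of a filter each alter few members, so most member counts under them could hardly move. Among differences and additive effects of single members, 464 alternatives were the same and 25 moved, by over 1.5-fold or by a change of sign in the fit. In 1 more, an effect passed only in the alternative. None of the members' differences that were called changed direction. With arrays scaled to equal medians, 0 members were lower at 6 h of LPS in wild-type cells, where C1qa was at -0.89, and 0 were lower at 24 h in CD14-deficient cells, where C5ar1 was at -0.81. On the intensities as deposited, 2 members were lower at 24 h in wild-type cells, with C1qa at -1.01, and 1 was lower in CD14-deficient than in wild-type cells at 0 h, Cfb, which was also 1 without the filter on dim genes. The additive fit passed 33 genes for CD14 deficiency, 233 as deposited and 78 without the 2 unstimulated arrays, and for EGTA 0 genes and 2 as deposited. The cause of these moves was not tested. The scale also changed the split of all called genes. As deposited, the share higher and the share lower were 15.95% and 3.15% for CD14-deficient against wild-type cells at 24 h (5.21% and 6.21% after quantile normalisation), and 1.44% and 6.50% at 6 h (2.53% and 3.08%). For EGTA they were 0.0295% and 19.96% at 6 h (0.549% and 0.267%) and 1.77% and 0.645% at 24 h (1.02% and 1.11%). For 24 h of LPS they were 6.58% and 11.6% in CD14-deficient (8.29% and 8.77%) and 5.17% and 31.1% in wild-type cells (10.6% and 10.7%), and for 6 h in CD14-deficient cells 6.89% and 19.7% (10.3% and 8.99%). For 24 h against 6 h they were 7.43% and 4.59% in CD14-deficient cells (4.32% and 6.16%), 16.6% and 2.53% with EGTA (5.6% and 6.14%) and 1.60% and 18.5% in wild-type cells (5.5% and 5.56%). With equal medians, 24 h of LPS in wild-type cells gave 13.5% and 8.69%, 6 h in CD14-deficient cells gave 12.1% and 6.57%, and the median difference of all genes at 24 h was 0.13 in CD14-deficient (-0.04 after quantile normalisation) and 0.12 in wild-type cells (-0.07). No paired analysis was possible because each group has 1 array and the labels carry no replicate numbers. Differences of genes near the floor, among them Cfb and Fpr2 before LPS, are limited by signal over background.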
